A study of Mus musculus with 18 samples.

Results

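Cytosolic ribosomal proteins are the protein parts of the ribosome that works in the cytoplasm, with those named Rps in the small subunit and those named Rpl in the large one. The genes described here were chosen by name. They are genes whose annotated symbol is Rps or Rpl followed by a number, with an optional a or x, together with the stalk proteins Rplp0 and Rplp2, the laminin receptor Rpsa and Fau, which encodes Rps30 fused to a ubiquitin-like protein. This gave 43 of the 18191 genes measured, 21 of the small and 22 of the large subunit, each read through 1 probe set, the brightest on average among those annotated to that gene alone.

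RNA of cultured mouse motoneurons was measured on 18 Affymetrix Mouse430_2 arrays, 3 in each of 6 groups. The groups were Smn knockdown (a lentiviral short hairpin RNA against Smn), empty vector (the lentivirus without the hairpin) and untreated WT, each sampled from the axonal and from the somatodendritic side. All of the cells came from spinal cords of embryos at E12.5, were enriched by p75 panning and grew for 7 days in microfluidic chambers, with 20 ng/ml BDNF on the axonal side and 5 ng/ml CNTF on both sides, and their RNA was amplified in 2 rounds. The lentivirus was given to the panned culture as a whole, and whether replicate arrays stem from different cultures is not stated in the labels, so that p-values measure the spread between these arrays, which may be technical. All Smn knockdown arrays have titles that begin with Nr, and all empty vector and WT arrays titles that begin with Gr. The labels do not say whether the 2 series were handled apart. A difference in handling cannot be told apart from the knockdown. Values are log2 expression values that the authors brought to a common distribution separately for each compartment, so comparisons across compartments set values normalized apart beside each other.

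The background of an array was set at the value below which 95% of 129 probe sets lay that read odorant, pheromone or taste receptors, keratin-associated proteins or defensins. Of the 18191 genes, 5276 to 6932 lay above it in axonal Smn knockdown, 6528 to 9270 in axonal empty vector, 8697 to 9721 in axonal WT and 9770 to 10248 on the somatodendritic arrays. Axonal Smn knockdown replicates 1 and 3 stood apart most, with median correlations of 0.541 and 0.659 across genes with the somatodendritic control arrays, followed by axonal empty vector replicate 2 (0.704) and Smn knockdown replicate 2 (0.711). Smn1 itself lay above background on 1 of the 18 arrays, and its log2 difference between Smn knockdown and empty vector was -0.66 in axonal arrays (limma adjusted p = 0.486) and -0.14 in somatodendritic arrays (adjusted p = 0.412), so the fall of the target was not detectable here. The neuronal genes Tubb3, Stmn2, Prph and Map2 were above background on every array, while Chat, the enzyme that makes acetylcholine in motoneurons, was above it on none. The motoneuron gene Isl1 was above it on 1 array each of somatodendritic WT and empty vector and on no other. Of 16 listed motoneuron and neuron genes, 10 to 11 lay above background on somatodendritic arrays. In axons these were 10 in WT, 8 to 11 with the empty vector and 7 to 8 with Smn knockdown.

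Ribosomal proteins are made in the cytoplasm and most of them join ribosomal RNA in the nucleolus, although some can be exchanged on ribosomes away from it. Their mRNAs belong to the most abundant messages of most cells, and in axons they have been found repeatedly, which has drawn interest because axons lie far from the nucleolus. Translation of these mRNAs is controlled together through a C followed by pyrimidines at the very 5′ end, the TOP motif, which is bound by Larp1 under the control of the mTOR kinase.

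The start of the gene shows that motif for some of the members that the results turn on and not for others. Promoter sequences from RefSeq, on the build GRCm38.p6, were given for 38 of the 43 genes. A C followed by 4 pyrimidines (C or T, on the coding strand) stood directly at an annotated start in 9 of 38 (23.7%), against 2.94% of 14366 genes on the arrays. Because annotated starts can lie a few bases off, unbroken pyrimidine runs of 8 or more that begin with C were also counted within 25 bases on each side of the start. They were present in 21 of 38 members (55.3%), against 18.8% of genes on the arrays. The 8 sequences below run from 15 bases before the annotated start through the first 15 transcribed bases, and capitals mark the longest such run in these 30 bases. Rps10, Fau, Rps9, Rps27 and Rpl27a are shown as genes with a large axonal excess or a knockdown effect that differed between the compartments and with a run of 8 or more, and Rps6 as a gene with the motif that was lower in axons. Rps15 and Rplp0, which had the largest axonal excess of their subunits, are shown because they lack such a run, as does Rps19. The motif stood directly at the annotated start in Rps10, Fau, Rps27 and Rps6, but not in Rps9, Rpl27a, Rps15 or Rplp0.
Rps10, chr17:27635230-27635259, minus strand: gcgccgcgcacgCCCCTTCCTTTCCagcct
Fau, chr19:6057932-6057961, plus strand: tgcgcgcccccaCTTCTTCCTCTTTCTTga
Rps9, chr7:3704026-3704055, plus strand: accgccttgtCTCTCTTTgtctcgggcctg
Rps27, chr3:90213634-90213663, minus strand: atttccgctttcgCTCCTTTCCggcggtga
Rpl27a, chr7:109519180-109519209, plus strand: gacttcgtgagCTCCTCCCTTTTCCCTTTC
Rps6, chr4:86857353-86857382, minus strand: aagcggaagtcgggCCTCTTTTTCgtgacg
Rps15, chr10:80292416-80292445, plus strand: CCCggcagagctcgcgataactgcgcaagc
Rplp0, chr5:115559452-115559481, plus strand: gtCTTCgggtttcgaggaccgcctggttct
Members with a run of 8 or more had a median axonal minus somatodendritic log2 difference in controls of 0.99 (n = 21), and those with a shorter run 0.67 (n = 17). The ranges of both sets overlapped widely, from -2.16 to 2.67 and from -0.43 to 3.34. The sequence does not say which start was used in these cells.

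Most members were strongly expressed, and their median stood nearer the top of the axonal than of the somatodendritic arrays. Of the 43 members, 34 to 36 lay in the top 10% of genes on axonal arrays and 24 to 29 on somatodendritic arrays. On each array the 18191 genes were ranked by value, which depends on how well each probe set binds, so positions are best compared for the same genes between arrays. The median member lay at percentile 99.7 on each of the 3 axonal Smn knockdown arrays, at 99.04, 99.1 and 99.4 with the axonal empty vector and at 99.5, 99.2 and 99.3 in axonal WT. On somatodendritic arrays it lay at 97.5, 97.3 and 97.4 with Smn knockdown, at 97.3, 97.0 and 95.8 with the empty vector and at 93.8, 93.1 and 96.7 in WT. No axonal array overlapped a somatodendritic one, and the 3 axonal Smn knockdown arrays lay above all other axonal arrays.

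The top 100 genes of an array held 30, 26 and 32 members in axonal Smn knockdown, 17, 16 and 20 in axonal empty vector and 24, 16 and 17 in axonal WT. Somatodendritic arrays had 9, 6 and 6 with Smn knockdown, 8, 6 and 6 with the empty vector and 6, 5 and 6 in WT. Every axonal array thus held more of these genes among its 100 highest than any somatodendritic array, and the axonal Smn knockdown arrays held the most.

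Both subunits showed the shift, and large subunit genes were rare in the top 100 of somatodendritic arrays. In the top 100, large subunit genes numbered 13 to 17 in axonal Smn knockdown, 7 to 10 in axonal empty vector and 7 to 12 in axonal WT, against 0 to 2, 0 to 1 and 0 on the somatodendritic arrays of those groups. Small subunit genes numbered 13 to 15, 9 to 10 and 9 to 12 in the axonal groups, against 6 to 7, 6 to 7 and 5 to 6 in the somatodendritic ones. The median small subunit gene lay at percentile 99.7 to 99.8 in axonal Smn knockdown, 98.99 to 99.4 in axonal empty vector and 99.2 to 99.6 in axonal WT. In the somatodendritic groups it lay at 97.3 to 97.5, 95.2 to 97.6 and 89.6 to 97.0, and the widest of these ranges was that of WT.

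**Figure D1:**
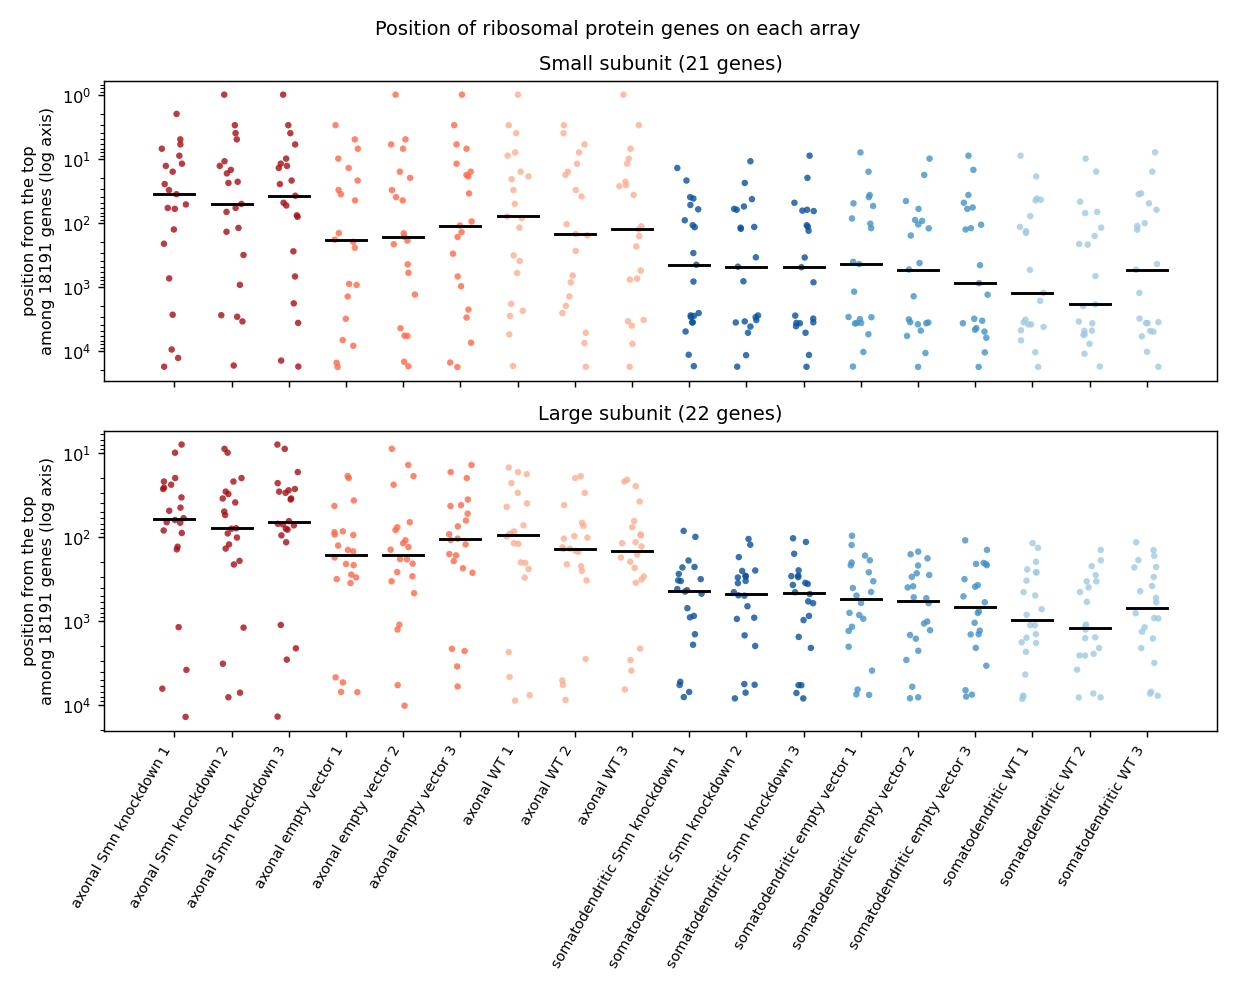
Position from the top among 18191 genes (log axis, 1 at the top) of each small subunit (upper panel) and large subunit gene (lower panel) on each of the 18 arrays; points are genes and black lines are medians. The axonal arrays on the left have their medians above those of all somatodendritic arrays on the right, and Rps16, between 3.10 and 4.12 in value, is the lowest point of the upper panel on every array.

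The members were not uniform. Of the 43, 36 lay above background on all 18 arrays. Rps28 was the brightest small subunit gene, between 14.52 and 14.74 on the axonal and between 14.15 and 14.31 on the somatodendritic arrays, and Rpl38 had the highest mean of the large subunit, 13.62. The lowest of the small subunit was Rps16, between 3.10 and 4.12 and above background on none of the 18 arrays, and the lowest of the large subunit was Rpl39, with a mean of 7.51. The remaining members that missed background somewhere were Rps27 (above it on 9 arrays), Rps6 (14), Rpl12 and Rps25 (15 each), Rpl14 (16) and Rpl37 (17). A low value of 1 probe set does not show that a subunit lacks the protein, since each gene was read by 1 probe set and other probe sets of several members gave other values.

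In axons the median within-group SD was lower for these genes than over all genes. Most members lie near the top of the axonal arrays, where the common distribution leaves values nearly fixed. Genes of like level were not compared. The median within-group SD was 0.22 for members and 0.54 for all genes on axonal arrays, and 0.13 for both on somatodendritic arrays. Within axons it ran from 0.053 for Rpl38 to 1.66 for Rps6. Across the 6 groups the means spread least for Rps7 (SD of group means 0.11) and most for Rps15 (1.94). The highest group mean was that of axonal Smn knockdown for 35 of 43 members, and the lowest was that of somatodendritic WT for 25.

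The comparison of axonal with somatodendritic control arrays asks which transcripts are richer in axons, with empty vector and WT averaged in each compartment. Of 43 members, 35 were higher in axons at limma's adjusted p under 0.05, where 35.7% of all genes were, and 3 were lower, where 25.9% of all genes were. Their median log2 difference was 0.91, against 0.18 over all genes. The fit used 1 common spread for both compartments, although axonal arrays of a group differed more than somatodendritic ones. With genes that were dim left out, 34 of 42 members were higher, against 12.2% of 10768 genes, 3 were lower, against 40.3%, and the median over all those genes was -0.62. Genes were kept here if they lay above background on every array of at least 1 group. More genes lay above background on somatodendritic arrays, so this filter favours genes that are high there. The shares over the kept genes carry that tilt and are no neutral measure for the members. Counting only genes whose 6 axonal arrays did not overlap the 6 somatodendritic ones, 31 members lay above, against 25.3% of all genes, and 2 below, against 18.3%.

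The small subunit had 17 higher and 3 lower of 21, with a median of 0.81, and the large subunit had 18 higher and none lower of 22, with a median of 1.07. The largest single differences, in both directions, were those of small subunit genes. Rps15, a protein near the decoding site, had a lowest, median and highest value of 12.18, 12.56 and 12.91 in axonal controls, against 8.57, 9.27 and 9.63 in somatodendritic controls. The 2 sets of 6 arrays were far apart, and the log2 difference of 3.34 (SE 0.15, adjusted p = 1.16e-08) corresponds to 10.2-fold. A second Rps15 probe set gave 2.78.

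Rps10, which sits at the mRNA entry side of the small subunit, had 10.56, 11.28 and 12.06 in axonal controls, against 8.18, 8.61 and 9.22 in somatodendritic controls. The arrays did not overlap, with a difference of 2.67 (SE 0.26, adjusted p = 6.14e-06). Of the other Rps10 probe sets, 4 gave differences from 0.85 to 2.81, and the dimmest, with a mean of 5.60, gave 0.23.

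Rps14, a protein of the platform of the small subunit, had 13.65, 13.94 and 14.12 in axonal controls, against 10.42, 11.69 and 12.20 in somatodendritic controls. The somatodendritic values spread widely and still stayed below every axonal value (difference 2.38, SE 0.21, adjusted p = 3.57e-06). Rps24, whose human counterpart is mutated in some cases of Diamond-Blackfan anaemia, had 12.58, 12.84 and 13.46 in axonal controls, against 10.33, 10.89 and 11.05 in somatodendritic controls (difference 2.09, SE 0.15, adjusted p = 5.02e-07). Rps19, the gene most often mutated in that anaemia in humans, had 10.62, 11.03 and 11.73 against 8.56, 9.16 and 9.64 in the same groups (difference 2.06, SE 0.21, adjusted p = 8.04e-06). None of these genes had overlapping arrays.

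In the large subunit the acidic stalk, which recruits translation factors, was higher in axons. Rplp0, its base, had 12.53, 12.96 and 13.35 in axonal controls, against 9.92, 10.65 and 11.08 in somatodendritic controls. These arrays did not overlap, and the difference of 2.34 (SE 0.17, adjusted p = 4.27e-07) was the largest of the large subunit. Rplp2, which binds to Rplp0, averaged 12.47 ± 0.36 in axonal and 11.08 ± 0.48 in somatodendritic controls (SD, n = 6 each, difference 1.39, adjusted p = 1.34e-04). Rpsa, a laminin receptor as well as a ribosomal protein, averaged 14.48 ± 0.11 against 13.04 ± 0.14 in the same groups (difference 1.44, adjusted p = 3.36e-07), and Fau averaged 10.38 ± 0.54 against 8.77 ± 0.38 (difference 1.61, adjusted p = 8.88e-05). The differences of the other members higher in axons ran from 0.36 for Rpl13a to 1.94 for Rpl19. Rps16 was among them although neither compartment was above background for it, and Rps27 was not above background in somatodendritic controls, so that it was at least 1.64-fold higher.

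The 3 members lower in axons belonged to the small subunit, and 2 of them varied widely between axonal arrays. Rps6, whose protein is phosphorylated downstream of mTOR, had 4.91, 8.13 and 8.73 in axonal controls, against 9.19, 9.49 and 9.53 in somatodendritic controls. Every axonal value lay below every somatodendritic one (difference -2.16, SE 0.63, adjusted p = 0.00916). The 2 lowest axonal values came from empty vector replicates 1 and 2, at 4.91 and 5.02, while replicate 3 had 8.63 and the WT arrays 8.73, 7.75 and 8.52. Rps25, which some internal ribosome entry sites need, had 4.94, 7.79 and 9.35 in axonal controls, against 9.18, 9.20 and 9.46 in somatodendritic controls, and the groups overlapped (difference -1.63, SE 0.47, adjusted p = 0.00909). When all 18 arrays were quantile normalized together, neither remained past the threshold (-1.51, adjusted p = 0.127, and -0.97, adjusted p = 0.182). Rps3, a protein at the mRNA entry with a second role in DNA repair, had 12.46, 13.07 and 13.16 against 13.17, 13.42 and 13.55 (difference -0.43, SE 0.12, adjusted p = 0.00685).

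**Figure D2:**
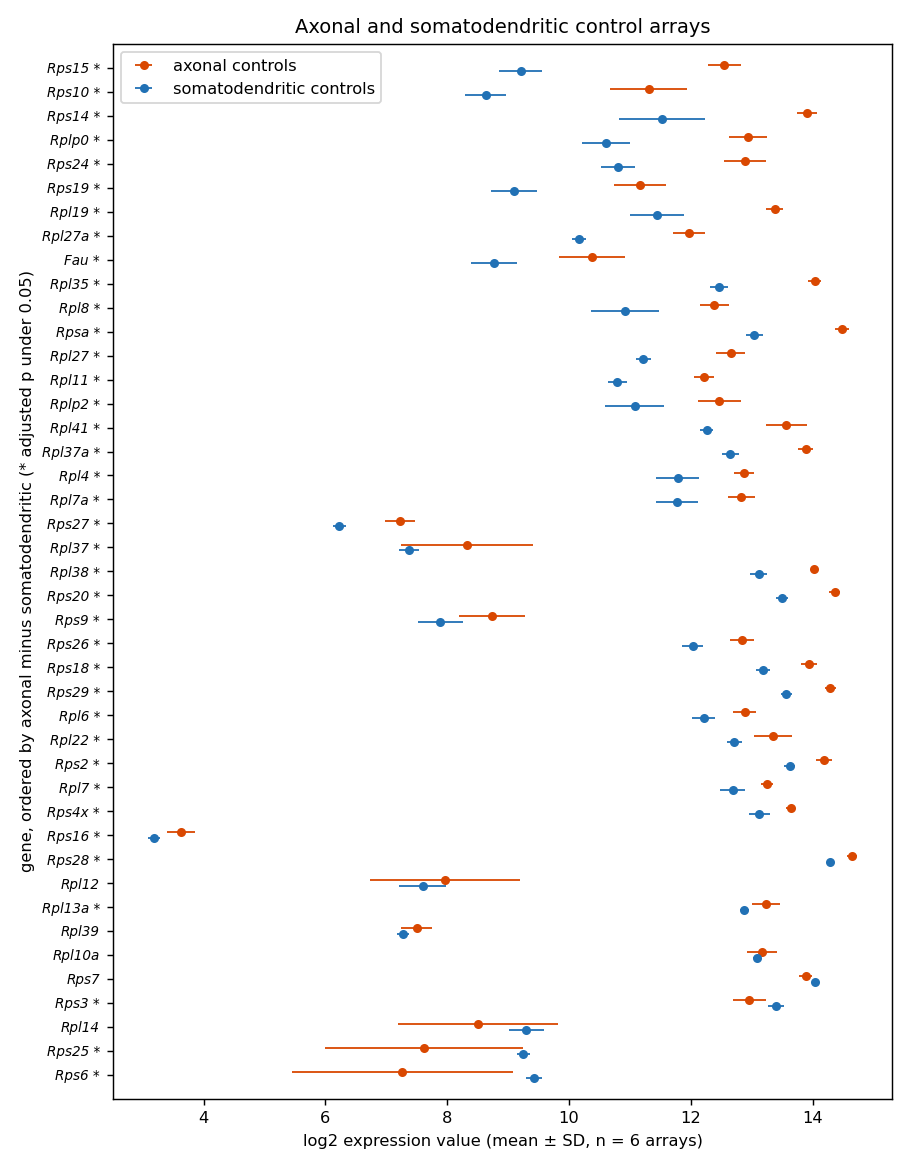
Mean log2 expression value with SD (bars, n = 6 arrays) of each of the 43 genes in axonal controls (orange) and somatodendritic controls (blue), ordered by the difference; an asterisk marks limma adjusted p under 0.05. Rps15 at the top differs by 3.34 and Rps6 at the bottom by -2.16, and Rps6, Rps25, Rpl14 and Rpl12 have the widest axonal bars.

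The same comparison within Smn knockdown arrays had 37 members higher in axons (34% of all genes) and 2 lower (27.7%). Its means share no array with the control comparison, but the spread of both came from 1 fit to all 18 arrays. All 35 members higher in axonal controls were also called higher here, with Rpl10a and Rpl39 added, and the median was 1.17. With dim genes left out by the same filter, which carries the same tilt, 36 of 42 members were higher, against 16% of 10768 genes. Rps15 averaged 13.45 ± 0.07 in axonal and 9.75 ± 0.09 in somatodendritic knockdown arrays (SD, n = 3 each), a difference of 3.69 (SE 0.22, adjusted p = 1.10e-07). Rps10 differed by 3.56, Rps19 by 3.44, Fau by 2.76, Rpl27a by 2.75 and Rplp0 by 2.66. Those lower in axons were Rps6, by -2.78 (adjusted p = 0.0142), and Rpl12, a protein of the stalk base. Rps6 had a lowest, median and highest value of 5.23, 5.50 and 8.62 in axonal knockdown. It was above background on 1 of these 3 arrays, so -2.78 is not an exact size. Rpl12 was not above background in axonal knockdown and so at least 1.79-fold lower (adjusted p = 0.0238). When all 18 arrays were quantile normalized together, no member was called lower in this comparison. A gene counts as not above background in a group where no array of the group exceeds the level, and its fold is then a lower bound against that level.

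The probe sets of ribosomal protein genes need care, because the genome holds many processed copies of these genes. Of the 43 probe sets, 16 carry the suffix _a_at (several transcripts of 1 gene), 2 carry _s_at and 14 carry _x_at (both of which may read more than 1 gene) and 11 carry none. In axonal against somatodendritic controls, 6 of the 11 with no suffix were higher and 2 lower, with a median of 0.44. Of the 32 with a suffix, 29 were higher and 1 lower, with a median of 0.93. The probe sets without a suffix also read lower, with a median level of 8.49 against 12.84 for those with one. For members called in this comparison, 46 of 51 further probe sets had the same sign.

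Other genes of the pathway were listed in 4 groups: ribosome biogenesis factors, other mRNAs with a TOP motif, the mTOR pathway with TOP-binding proteins, and relatives of ribosomal proteins that the naming rule leaves out. The shares of all genes given above apply to these counts too: 35.7% higher and 25.9% lower. The list counts keep dim genes, so the shares with dim genes left out, 12.2% and 40.3%, are not matched to them. Of 74 biogenesis factors, 9 were higher in axonal controls than in somatodendritic controls and 23 lower (median -0.39). Rpf2, which brings 5S RNA into the large subunit, was higher by 1.34 (SE 0.15, adjusted p = 2.21e-05). Tsr2, a chaperone of Rps26, fell by 2.48 (SE 0.66, adjusted p = 0.00558), and Rrs1, the partner of Rpf2, fell by 2.31 (SE 0.45, adjusted p = 8.56e-04). Of 18 other TOP mRNAs, 3 were higher and 5 lower (median -0.31), with the elongation factor Eef2 higher by 1.29 and the initiation factor subunit Eif3e lower, at -0.93. Of 21 genes of mTOR signalling and TOP binding, 3 were higher and 4 lower (median -0.17), with the translation inhibitor Eif4ebp1 higher by 2.53 and Larp4 lower, at -2.50. Of 7 relatives, 3 were higher and none lower (median 0.45).

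Markers of other cell types were also read on these arrays. The astrocyte marker Gfap was above background on somatodendritic arrays and on no axonal array, but 3 to 8 of 10 astrocyte genes were above it on axonal arrays. Axonal WT replicate 2 had 8, with a mean level of 8.76, against 8.84 to 9.64 on somatodendritic arrays. In axonal against somatodendritic controls, 7 astrocyte genes were lower and 1 higher, where 25.9% and 35.7% of all genes were. Of 16 motoneuron and neuron genes, 8 were lower and 4 higher. The mean of 9 fibroblast and meninges genes reached 8.46 on axonal WT replicate 1. The mean level of 15 microglia and macrophage genes ran from 6.89 to 9.32 in axonal Smn knockdown, 5.94 to 6.35 in axonal empty vector and 7.01 to 10.1 in axonal WT. On somatodendritic arrays its range was 8.20 to 8.54 with Smn knockdown, 5.99 to 6.33 for empty vector arrays and 7.85 to 7.94 for WT. On the mixed RNA of an array, fewer cells of a type and less RNA per cell cannot be told apart. The part of these cells in the ribosomal protein differences was not tested.

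In axons, Smn knockdown was set against the empty vector to see which local transcripts move with it. No member was called by limma (0 of 43 at adjusted p under 0.05, where 0.176% of all genes were), and 14 members had an unadjusted p under 0.05, as did 3318 of all genes. Log2 differences were positive for 39 of 43 members, with a median of 0.40 against 0.06 over all genes. In 28 members every knockdown array lay above every empty vector array, against 13.3% of all genes, and in 1 member every knockdown array lay below, against 8.43%. Fewer genes lay above background in axonal Smn knockdown than in the axonal controls, as given above, on arrays brought to 1 common distribution, and the part of this in the ribosomal protein values was not tested.

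The 3 members with the lowest p were all of the small subunit. Rps9, a protein that helps form the mRNA entry, had 10.82, 10.49 and 10.93 on the knockdown arrays, against 8.57, 7.91 and 9.12 with the empty vector. The groups did not overlap, with a difference of 2.21 (SE 0.39, adjusted p = 0.0636). Of the other Rps9 probe sets, one with a mean of 7.59 gave 1.12 and one with a mean of 5.09 gave -1.18.

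Fau had 12.40, 11.96 and 12.06 with knockdown, against 9.892, 9.998 and 10.461 with the empty vector (difference 2.02, SE 0.37, adjusted p = 0.0647). Rps19 had 12.84, 12.88 and 13.09, against 10.62, 11.62 and 11.01 in the same groups (difference 1.85, SE 0.35, adjusted p = 0.0681). In both genes the groups did not overlap, and the adjusted p over all genes was not under 0.05. Of all members, 10 had a difference of at least 1 on the log2 scale and 2 of at most -1. Those with the negative differences were Rpl12, not above background with the knockdown, and Rpl14, an RNA-binding protein of the large subunit. Rpl14 had 5.31, 7.06 and 9.19 in knockdown arrays, against 7.69, 10.29 and 9.24 with the empty vector, which overlapped.

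Some members lay at the very top of every axonal array, Rps28 at positions 1 to 4 and Rpsa at 3 to 7. Axonal arrays were brought to 1 common distribution, so values there are nearly fixed and small differences do not show that a gene was stable. Rpsa had a difference of -0.01, Rps2 of 0.03, Rps28 of 0.04 and Rpl37a of 0.05. Rplp0 averaged 13.41 ± 0.09 with knockdown and 13.01 ± 0.43 with the empty vector (SD, n = 3 each), a difference of 0.40, and Rplp2 averaged 13.46 ± 0.09 and 12.48 ± 0.20, a difference of 0.98. Neither passed the test over all genes.

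Against axonal WT, no member was called either (0 of 43, where 0.099% of all genes were), 11 members had an unadjusted p under 0.05, as did 3803 of all genes, and the median was 0.25. In 24 members the knockdown arrays lay above all WT arrays (18.8% of all genes) and in 3 below (9.96%). Rps19 differed by 1.70 (SE 0.35, adjusted p = 0.0656), Rps9 by 1.82 (SE 0.39, adjusted p = 0.0666) and Rps27 by 1.21 (SE 0.28, adjusted p = 0.0734). These comparisons share the knockdown arrays, so their values do not bear on each other independently.

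The empty vector against WT in axons had no call among members or among all genes (0%), 1 member and 603 genes with an unadjusted p under 0.05, and a median of -0.08. Rps25 had 6.81, 7.41 and 4.94 with the empty vector, against 9.02, 9.35 and 8.17 in WT, without overlap (difference -2.46, SE 0.88, adjusted p = 1.00). Arrays did not overlap in 1 member above (4.29% of all genes) and 3 below (4.54%).

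In the somatodendritic compartment, where arrays of a group lay closer together, members moved in both directions and by less. Against the empty vector, Smn knockdown had 9 members called, where 28% of all genes were. Of the members 6 were higher and 3 lower, and of all genes 2267 and 2821, with a member median of 0.08 against -0.02 over all genes. Arrays did not overlap in 16 members above (19.6% of all genes) and 5 below (23.6%). The called share of the members was thus below that of all genes, and without Smn knockdown replicate 2 it was lower still, at 5 members.

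Rpl8, a protein near the catalytic centre of the large subunit, had 12.08, 12.03 and 11.88 with knockdown, against 11.52, 11.27 and 10.96 with the empty vector. The groups did not overlap (difference 0.74, SE 0.23, adjusted p = 0.0315). Rpl19 had 12.46, 12.53 and 12.32 against 11.84, 11.83 and 11.58 (difference 0.69, SE 0.17, adjusted p = 0.00865). The other genes that rose were Rps10 by 0.67 (arrays overlapped), Rps24 by 0.52, Rpl11, which binds Mdm2 when ribosome assembly fails, by 0.49, and Rpl13a, part of a complex that silences inflammatory mRNAs in human myeloid cells, by 0.32. Of 3 further Rpl13a probe sets, 1 gave 0.39 and the others -0.34 and -0.15, and for all members called in this comparison 10 of 15 further probe sets had the same sign.

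Rpl14 fell the most. It had 8.36, 8.16 and 8.12 with knockdown, against 9.12, 9.68 and 9.38 with the empty vector, which did not overlap (difference -1.18, SE 0.17, adjusted p = 2.20e-04). Rpl7 had 12.21, 12.03 and 12.12 against 12.87, 12.77 and 12.80, also without overlap (difference -0.69, SE 0.11, adjusted p = 6.52e-04), and its 2 further probe sets gave -0.64 and -0.53. Rps27 was called lower as well but lay at background in both groups, so no fold is given.

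Against somatodendritic WT, 16 members were higher (15.6% of all genes) and 4 lower (20.4%), and the median was 0.18. Arrays did not overlap in 22 members above (20.9% of all genes) and 6 below (27.8%). The largest rises were those of Rpl8 by 1.42 (SE 0.23, adjusted p = 4.58e-04), Rpl19 by 1.31, Rps14 by 1.27, Rps10 by 1.06, Rplp2 by 0.90 and Rpl4 by 0.88. Rpl14 fell by 0.99, Rpl7 by 0.45 and Rps20 by 0.34, and Rps27, dim in both groups, was also called lower.

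The WT arrays of this compartment differed among themselves for these genes. Rps14 had 11.03, 10.43 and 11.95 and Rpl8 had 10.72, 9.92 and 11.08 in the 3 WT arrays, and replicate 2 was the lowest in both. Empty vector against WT had no member called (0 of 43, where 0.484% of all genes were higher and 1.52% lower), 11 members had an unadjusted p under 0.05, as did 3138 of all genes, arrays did not overlap in 4 members above (8.05% of all genes) and 1 below (10.8%), and the median was 0.12. The members with the lowest p were Rpl12, higher by 0.58 (SE 0.14, adjusted p = 0.0520), Rpl4 by 0.53 (SE 0.13, adjusted p = 0.0672) and Rpl19 by 0.62 (SE 0.17, adjusted p = 0.0891). Without WT replicate 3, 12 members were called higher, where 611 of all genes were higher and 797 lower.

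Signs of RNA quality moved with these groups. The difference between 3′ and 5′ Gapdh probe sets was 3.99, 4.12 and 4.01 in somatodendritic Smn knockdown, 3.68, 3.53 and 3.60 with the empty vector and 3.48, 3.11 and 3.61 in WT, without overlap between the knockdown and either control. Of 15 microglial genes 14 were higher in the knockdown than in the empty vector arrays (median 2.35). Of 10 astrocyte genes 7 were lower and none higher (median -0.46), and of 8 oligodendrocyte lineage genes 4 were lower and none higher (median -0.37). On axonal arrays the Gapdh difference was 3.08, 3.60 and 2.80 in Smn knockdown and 3.06, 1.44 and 3.91 with the empty vector. In axonal WT it was 2.15, 3.27 and 2.79, and the axonal knockdown arrays overlapped those of both controls. The part of any of these in the differences of ribosomal protein genes was not tested.

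**Figure D3:**
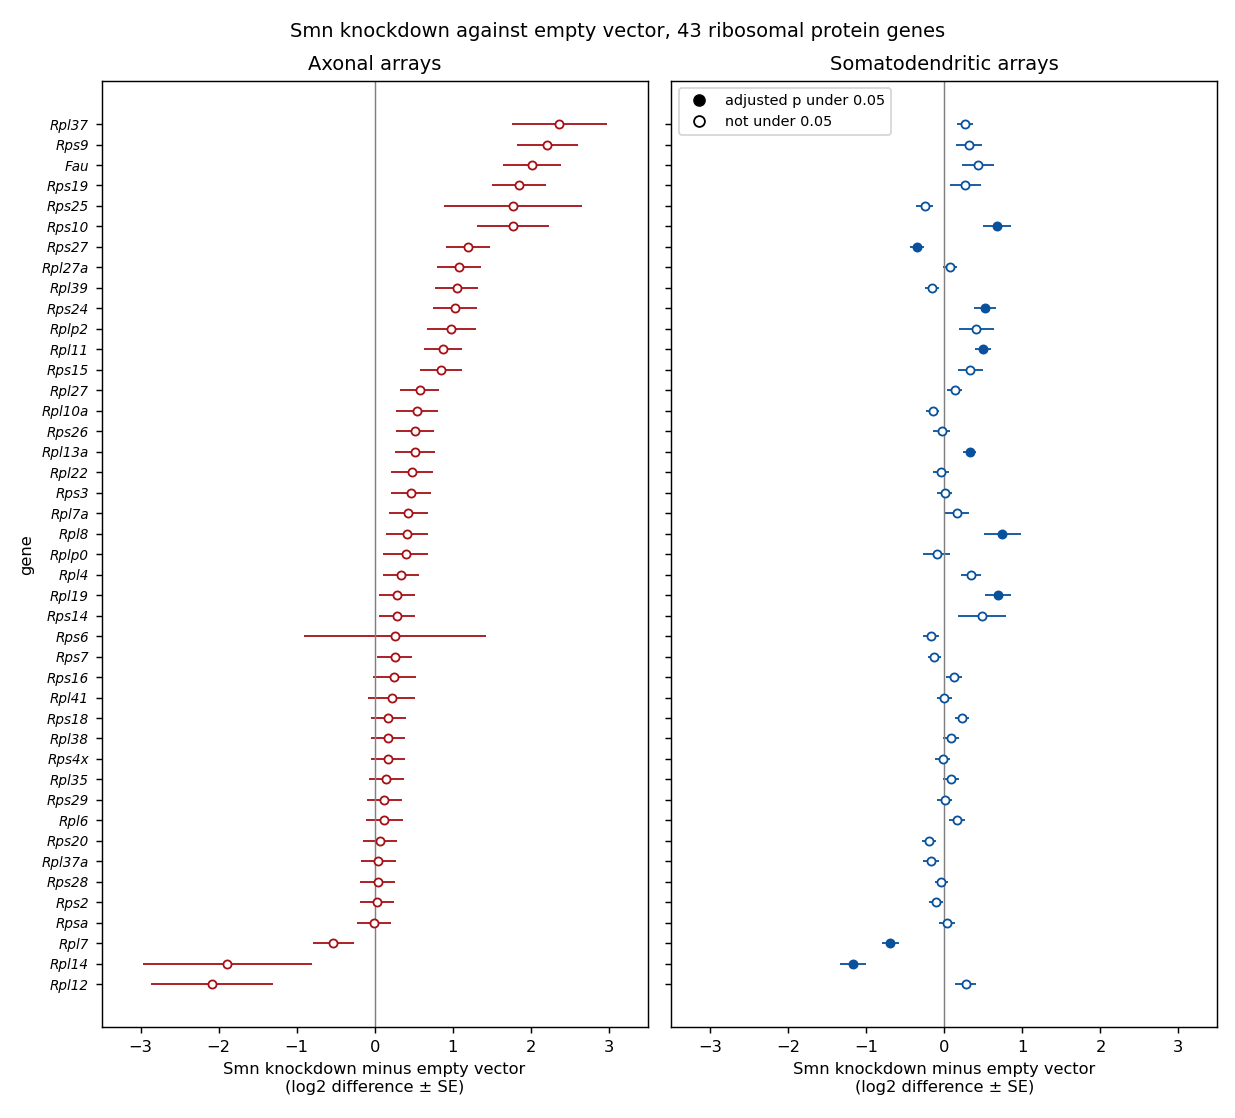
Log2 difference of Smn knockdown minus empty vector with limma's SE for each of the 43 genes on axonal arrays (left, red) and somatodendritic arrays (right, blue), in the order of the axonal difference; filled points have adjusted p under 0.05. No axonal point is filled although 39 of 43 lie right of 0, and 9 somatodendritic points are filled, 6 to the right and 3 to the left.

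The pathway lists under knockdown were as follows. In somatodendritic arrays, 19 of 74 biogenesis factors rose against the empty vector and 13 fell (median 0.10), where 2267 of all 18191 genes rose and 2821 fell. Pes1, needed for the large subunit, rose by 0.79 and Rrp15, dim with the empty vector, was at least 1.43-fold higher, while Nol11 fell by 1.21 and Riok3 by 0.82. Of 21 genes of mTOR signalling and TOP binding, 5 rose and none fell, among them Larp1 by 0.70 (SE 0.11, adjusted p = 6.49e-04) and Tsc2, a brake on mTOR, by 0.64. Of 18 other TOP mRNAs, 2 rose and 3 fell, Eef2 by 0.94 upward and Vim, an intermediate filament gene, by 0.57 downward. In axonal arrays none of these 3 lists had a called member, and of the 7 relatives Rpl7l1, a relative of Rpl7, was lower. It averaged 4.76 with the knockdown, above background on no array, and 9.09 with the empty vector, which makes it at least 3.41-fold lower (adjusted p = 0.0447), while the somatodendritic difference was -0.05 (adjusted p = 0.809).

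Whether the knockdown effect differed between the compartments was tested as an interaction over all 18 arrays. In 6 members the effect was more positive in axons (4.21% of all genes), and in none was it more negative (2.56%). Rps9 differed by 1.90 (SE 0.43, adjusted p = 0.0211), Fau by 1.59 (SE 0.44, adjusted p = 0.0444), Rps19 by 1.59 (SE 0.41, adjusted p = 0.0353), Rps27 by 1.55 (SE 0.27, adjusted p = 0.00624), Rpl39 by 1.21 (SE 0.26, adjusted p = 0.0175) and Rpl27a by 1.01 (SE 0.27, adjusted p = 0.0392). The fit shares 1 spread between compartments although axonal arrays vary more. When the arrays were weighted by quality, 2 members were called, and without single somatodendritic arrays 1 to 4 were (1 without empty vector replicate 1 or Smn knockdown replicate 2, 2 without empty vector replicate 2 or knockdown replicate 3, 3 without knockdown replicate 1, 4 without empty vector replicate 3).

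The array values show where the difference lay. Rps27, a zinc finger protein of the small subunit, had 8.68, 8.35 and 8.25 in axonal Smn knockdown and 7.23, 7.43 and 7.03 with the axonal empty vector, against 5.90, 5.83 and 5.87 and 6.29, 6.13 and 6.22 in the same groups of somatodendritic arrays. The somatodendritic values were at or under background, so that a fall there could not be measured. Rpl39, a small protein of the exit tunnel, had 8.12, 8.49 and 8.67 in axonal Smn knockdown and 7.20, 7.45 and 7.47 with the axonal empty vector, against 7.19, 7.06 and 7.07 and 7.40, 7.17 and 7.23 on the somatodendritic side. Its axonal knockdown arrays were the only ones above 8. Rpl27a had 13.27, 12.86 and 12.998 in axonal Smn knockdown and 11.92, 11.56 and 12.39 with the axonal empty vector, against 10.36, 10.30 and 10.21 and 10.29, 10.12 and 10.25 on the somatodendritic side. In each of these genes the 3 axonal knockdown arrays were above the other 15.

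**Figure D4:**
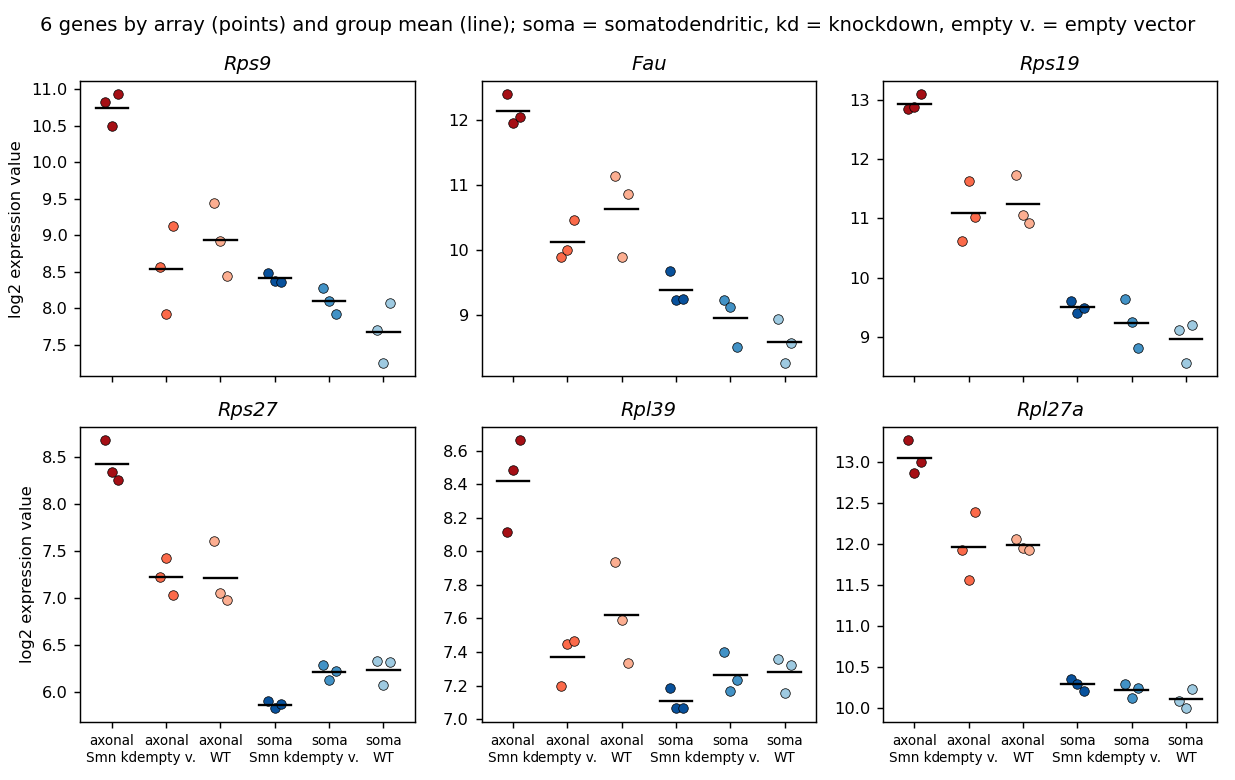
Log2 expression value of the 6 genes whose knockdown effect differed between compartments, by array (points) with the group mean (line), with the 3 axonal groups on the left and the 3 somatodendritic groups on the right of each panel. In every panel the 3 axonal Smn knockdown arrays lie above the other 15 arrays.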

How the data were processed

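The deposited log2 expression values of 45101 probe sets were used as the authors made them. Which software made them was not given in the sources used here. Sorted values were nearly identical within a compartment (differences up to 0.0048 somatodendritic and 0.0125 axonal), with different distributions between compartments. The platform annotation named 1 gene for 34934 probe sets, several for 932 and none for 9160. Control probe sets (64) and 11 with missing values were left out, with no filter on dim genes.

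Groups were compared in limma 3.58.1 under R 4.3.3 (lmFit, eBayes), with p adjusted by Benjamini-Hochberg over 18191 genes with a threshold of 0.05. Fits within a compartment used its 9 arrays, and fits across compartments and the interaction all 18. SE is limma's. The number of arrays limits the precision. The script was tested on simulated data. Named genes were up to 6 called members per direction and comparison by size, or else the 3 with the lowest p, with the extremes of level and spread, and the stalk proteins, Rpsa and Fau. List genes were up to 2 called per direction, or else the lowest p. The members and lists were chosen with earlier results of these data known. Protein sequences were not used here.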

Additional observations from a re-analysis of the deposited data

Results flagged for a closer look

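In 6 genes the test of the difference between the axonal and the somatodendritic effect of Smn knockdown against empty vector passed the threshold. The difference of the effects was 1.90 for Rps9, 1.59 for Fau, 1.59 for Rps19, 1.55 for Rps27, 1.21 for Rpl39 and 1.01 for Rpl27a, on the log2 scale, each more positive in axons. Other probe sets of Rps9 gave 1.04 and -1.10, and another of Rpl27a gave 2.68. Rps27 was above background on no somatodendritic array, so the somatodendritic part of its difference could not be measured and 1.55 is not an exact size. Across the alternative settings, Fau kept its call in 6 and lost it in 13, Rpl27a kept it in 8 and lost it in 12. Rps19 kept its call in 10 and lost it in 9, and Rpl39 kept it in 18 and lost it in 2. Rps9 kept its call in 12, lost it in 6 and reversed in 2, and Rps27 kept it in all 20. The microglial genes, Gapdh ends and numbers of genes above background of these groups are given beside the results, and their part was not tested.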

How the results depend on the processing

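With 3 arrays a group, and axonal arrays that vary widely, small axonal changes were below what the test could call. Larger ones went uncalled too. In axonal Smn knockdown against empty vector, 10 members differed by at least 1 on the log2 scale and 2 by at most -1, with none called. Genes at background have no measurable fall. The direction of the members' median held under every alternative except 2. Without axonal WT replicate 1, the axonal median of empty vector minus WT was 0.016. Without probe sets named _a_at, _s_at or _x_at, which leaves 22 members, the somatodendritic median of Smn knockdown minus empty vector was -0.030 with 5 members called, and Rps10 and Rps24 were at -0.039 and -0.021. That setting left 1 member called, lower, for axonal Smn knockdown against empty vector and 11 for somatodendritic Smn knockdown against WT. Of these 11, 7 were higher and 4 lower. It left 16 for each comparison of axonal with somatodendritic arrays, 12 higher and 4 lower of 22. The main result had 35 higher and 3 lower of 43 in controls, and 37 and 2 within Smn knockdown. Of 16589 genes tested under that setting, 6233 were higher and 4336 lower in controls, and 5853 and 4502 within Smn knockdown. Medians under it were 0.084 for axonal Smn knockdown against WT, 0.46 for axonal against somatodendritic controls and 0.61 for the same within Smn knockdown, where Rps10 was at -0.24. Rps9 then read -1.18 against the axonal empty vector, -0.70 against axonal WT and -1.10 for the interaction, and it read the same without _s_at and _x_at sets alone, an alternative chosen after seeing the data, under which Rps24 was again at -0.021 and medians were 1.12 for axonal against somatodendritic Smn knockdown and 0.48 for the interaction. With the mean of all probe sets, medians were 0.41 for axonal Smn knockdown against WT and 1.07 for axonal against somatodendritic Smn knockdown, which was 1.26 after joint quantile normalization.

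One fit to all 18 arrays, which shares the spread of both compartments, called 17 and 12 members for axonal Smn knockdown against empty vector and WT, and 0 and 3 in the somatodendritic comparisons. With dim genes left out, 1 member was called higher for axonal Smn knockdown against empty vector, where 19 of 7809 genes were higher and 129 lower. Array weights called 3 members for axonal Smn knockdown against WT (587 of all genes higher and 310 lower). They called 2 for somatodendritic empty vector against WT (155 and 322 genes) and 2 for the interaction (432 and 565 genes). A variance trend called 1 for somatodendritic empty vector against WT (92 and 266 genes) and 3 for the interaction (683 and 414 genes). Leaving out 1 array at a time gave 5 to 8 calls for somatodendritic Smn knockdown against empty vector and 19 to 24 against WT. The 5 came without Smn knockdown replicate 2, where 1641 of all genes were higher and 2078 lower. Somatodendritic empty vector against WT had 0 to 12 calls. The 12 came without WT replicate 3, where 611 of all genes were higher and 797 lower. The interaction had 1 to 7 calls. The 7 came without axonal empty vector replicate 2 (1724 genes higher and 919 lower) or replicate 3 (464 and 407). Axonal against somatodendritic arrays had 35 to 38 calls within Smn knockdown and 38 for the controls, and all axonal comparisons had 0. Medians then ran from 0.29 to 0.57 and from 0.21 to 0.29 for axonal Smn knockdown against empty vector and WT, from -0.17 to 0.02 for axonal empty vector against WT, from 0.02 to 0.12, from 0.13 to 0.25 and from 0.06 to 0.19 for the somatodendritic comparisons in the same order, from 0.85 to 0.97 for axonal against somatodendritic controls, from 1.11 to 1.18 within Smn knockdown and from 0.23 to 0.43 for the interaction. The cause of these changes was not tested beyond what each setting leaves out.

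Array titles carry numbers, but arrays sharing a number correlated above 0.1 in only 1 of 30 pairs (range -0.19 to 0.23). Numbers after Nr (Smn knockdown) and after Gr (controls) were matched in this. Whether they belong to the same numbering is not stated. With the number as replicate block, axonal against somatodendritic controls kept 38 calls and the axonal Smn knockdown comparisons had 0.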
